A study of Mus musculus with 16 samples.

Results

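Olfactory receptor genes of the mouse were followed in colon tissue by taking every gene symbol made of Olfr and a number in 2 deposited tables. The rule found 268 genes of the 1428 Olfr symbols in the RefSeq gene table. Of these, 210 had a transcript cluster of their own, a group of probes that an exon array reads as 1 transcript, among the 23332 clusters of the array data. The other source was a gene-level table of 1793 genes that the authors had selected by a test over UCC2003, TadA and GF, which held 69 olfactory receptor genes, and 11 genes were in both. A further 6 clusters carried an Olfr symbol together with another gene and were left out, since their probes do not tell the genes apart. Of all clusters 1973 carried exactly 1 gene symbol, so receptors without a named row were not analysed here.

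Total RNA from the removed colon was hybridised to Affymetrix Mouse Exon ST arrays, and all groups were germ-free Swiss Webster mice, an outbred stock, with or without added bacteria. The GF group stayed germ-free. The UCC2003 group carried Bifidobacterium UCC2003 alone, the TadA group carried Bifidobacterium with a mutant of the bacterial gene TadA, and the CONV group was re-conventionalised, that is, given a conventional microbiota. Each group had 4 arrays, titled as biological replicates, and p-values measure the spread between these arrays. The labels used here give no age or sex and no time since colonisation. Values are log2 intensities, so a difference of 1 is a doubling, and in whole tissue these arrays cannot tell fewer cells of a type from less RNA per cell.

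Olfactory receptors are G protein-coupled receptors and form the largest gene family of the mouse. In the nose each sensory neuron uses a single receptor gene, and the receptor acts through the G protein Golf (Gnal), adenylyl cyclase 3 (Adcy3) and a cyclic nucleotide-gated channel to depolarise the cell. Class I receptors lie together on chromosome 7 and resemble those of fish, while class II receptors are spread over many chromosomes in tandem arrays of close relatives. Some receptors are also known from other organs: Olfr558 has been described in serotonin-releasing enterochromaffin cells of the gut, where it responds to short branched fatty acids of bacterial origin, Olfr544 is known as a receptor for azelaic acid in liver, fat and pancreatic islets, and Olfr15 has been described in insulin-secreting cells.

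Only 2 members passed the test in any comparison, Olfr323 and Olfr1254, and their start regions are shown because the results turn on them. Both sequences are RefSeq windows on GRCm38.p6 of 250 bases before to 50 bases after the annotated gene start, for Olfr323 at chr11:58625995-58626294 and for Olfr1254 at chr2:89789301-89789600, both on the minus strand. Capitals mark the start codon ATG at the annotated start, and matches to the homeodomain cores TAATTA and TAATTG (on the other strand CAATTA) and to the TATA box TATAAA (on the other strand TTTATA).
Olfr323: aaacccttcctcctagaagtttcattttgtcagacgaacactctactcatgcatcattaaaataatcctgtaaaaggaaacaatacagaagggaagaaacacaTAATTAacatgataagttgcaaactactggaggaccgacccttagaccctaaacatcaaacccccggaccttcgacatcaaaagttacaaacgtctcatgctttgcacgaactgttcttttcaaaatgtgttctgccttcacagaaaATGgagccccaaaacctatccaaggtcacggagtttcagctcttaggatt
Olfr1254: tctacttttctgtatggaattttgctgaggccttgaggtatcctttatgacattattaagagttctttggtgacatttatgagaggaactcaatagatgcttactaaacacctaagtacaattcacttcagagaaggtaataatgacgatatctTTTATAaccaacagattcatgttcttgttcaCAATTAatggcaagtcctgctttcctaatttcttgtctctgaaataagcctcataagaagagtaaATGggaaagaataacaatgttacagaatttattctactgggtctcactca
The annotated start was the start codon itself in 163 of the 218 member windows (74.8%), against 5.83% of all 32851 windows, so for most members these windows lie in front of the coding sequence and may not hold the promoter. TAATTA or TAATTG, searched on both strands, occurred in 63 of the 218 member windows (28.9%), in 37.3% of the 948 Olfr windows and in 12.4% of all windows. The median GC content was 36.3% in the member windows and 52.7% in all windows. CCCNNGGG, the core of the site bound by the Olf/Ebf factors of olfactory neurons, was found in neither printed window, and in 4.13% of member windows and 13.7% of all windows. TATAAA matched in 36.2% of member windows and 13.6% of all windows. These matches describe letters only.

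The 268 genes matched the reference table without exception. Among the 210 cluster members, 47 were class I, 161 were class II and 2 had no MOR family, the numbered subfamilies of mouse odorant receptors, of which 116 were represented. Chromosome 7 held 70 cluster members, chromosome 2 held 38, chromosome 9 held 19 and chromosome 11 held 18. The gene-level members were 5 of class I and 64 of class II, and 23 of the 69 were on chromosome 2. Pseudogenes numbered 2 among the cluster members and 5 among the gene-level members. Close relatives share stretches of sequence, so probes of one receptor may also read another, and each value is that of the named cluster rather than of a single proven transcript.

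Signal from these clusters was low and varied between replicates. Cluster members had means over the 16 arrays of 2.99 to 7.02 log2 units, with a median of 4.74 against 5.96 for all clusters. Members could come only from the 16135 clusters in the authors' deposited comparison, whose median was 6.70. All clusters, as used here for comparison, also include those outside it, with a median of 4.22. Of the 210, 101 were among the dimmest 25% of all clusters (means up to 4.70), 96 in the next 25% (up to 5.96), 13 in the next (up to 7.23) and 0 in the brightest. The files give no detection p-value, so whether a cluster was above background cannot be read from them, and since probes differ in brightness, a rank of a cluster by its mean describes signal and not the amount of RNA. The median within-group SD was 0.442 log2 units over the members and 0.208 over all clusters. It was also higher at matched level: 0.522 against 0.374 in the dimmest 25%, then 0.382 against 0.207 and 0.279 against 0.181. The 95% confidence interval of a difference between 2 groups had a median half-width of 0.625 log2 units over the members, against 0.310 over all clusters, and it exceeded 1 in 12 members.

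**Figure D1:**
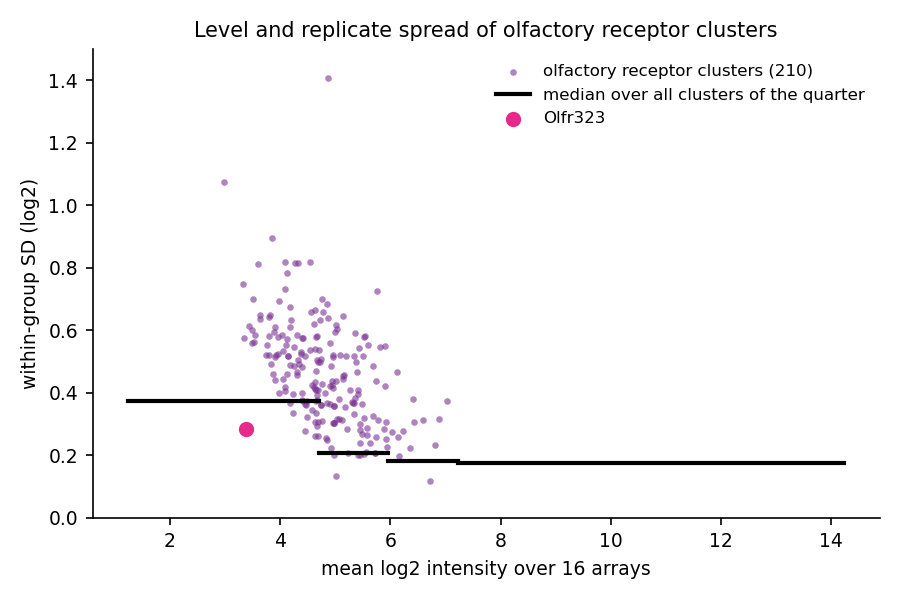
Mean log2 intensity over 16 arrays (x axis) and within-group SD in log2 units (y axis) of 210 olfactory receptor clusters. Black lines give the median SD over all clusters in 4 bins of mean level that hold equal numbers of clusters (0.374, 0.207 and 0.181 in the first 3), where the receptor medians are 0.522, 0.382 and 0.279 and Olfr323 has 0.284.

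The arrays themselves were alike, with medians from 5.91 to 6.03 log2 units and pairwise correlations from 0.938 to 0.979. Of the 13 colonic epithelium markers 2 had a cluster, Krt20 and Lypd8, with means of 11.25 and 13.06. Krt20 was 0.49 log2 units higher in CONV than in TadA (limma's moderated test, adjusted p = 0.0168). It also passed limma's F test over the 4 groups (adjusted p = 0.0473), and Lypd8 passed no test. Exocrine pancreas markers set part of the arrays apart: 8 of 16 arrays had Cpa1, a pancreatic carboxypeptidase, above 10 log2 units. Of 16 pancreas markers 3 had a cluster (Cpa1, Cel and Rnase1), and their mean ranged from 4.92 to 13.1 in GF, 4.62 to 13.1 in UCC2003, 4.67 to 12.9 in TadA and 5.02 to 12.7 in CONV. The high arrays were GF replicates 2, 3 and 4, UCC2003 replicates 1 and 3, TadA replicate 2, and CONV replicates 2 and 4. Of 9 olfactory sensory neuron markers 2 had a cluster and 1 was in the gene-level table. Omp, a protein of mature olfactory neurons, ran from 5.91 to 7.34 over the arrays, and Rtp1, a chaperone that carries receptors to the cell surface, from 4.23 to 5.40. Neither passed any test.

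Markers of other cell types moved with some comparisons. Of 10 smooth muscle markers 3 had a cluster (Cnn1, Lmod1 and Tpm2) and 4 were in the gene-level table (Myl9, Myh11, Des and Synm). The mean of the 3 clusters was 8.36 to 8.86 in GF, 8.95 to 9.14 in UCC2003, 8.64 to 9.16 in TadA and 8.17 to 8.49 in CONV, so UCC2003 lay above GF and CONV. None was called in UCC2003 against GF. In CONV against UCC2003, Cnn1 (-0.94, adjusted p = 0.00224), Tpm2 (-0.61, 0.0132), Myl9 (-1.37, 0.00404), Des (-1.46, 0.00301) and Synm (-1.51, 0.0211) fell. All but Myl9 also passed in CONV against TadA, where Myl9 was lower without passing (-0.76, adjusted p = 0.489). Enteroendocrine markers numbered 2 clusters (Pyy and Neurod1) and 3 gene-level genes (Pyy, Gcg and Insl5) of 10. In UCC2003 against GF the differences of Pyy (-0.33), Gcg (-0.84) and Insl5 (-0.56) did not pass, with no overlap of arrays. Neurod1 did not pass either (-0.04), with overlapping arrays. In CONV against UCC2003 the Pyy cluster rose by 0.39 (adjusted p = 0.0366). Of 7 T cell markers the gene-level table held Cd3g, which rose in CONV by 1.07 against GF (adjusted p = 0.0369) and by 1.17 against UCC2003 (adjusted p = 0.0180). Of 10 B cell markers it held 5, none of which was called; Cd79b was 1.00 log2 units higher in UCC2003 than in GF (adjusted p = 0.426). The tuft cell marker Il25 and the enteric neuron markers Tubb3 and Ret passed no test. The part of these cell types in the receptor values was not tested.

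The first question is whether colonisation with Bifidobacterium UCC2003 moved olfactory receptor genes away from the germ-free state. In UCC2003 against GF, Olfr323 alone of the 210 cluster members passed an adjusted p of 0.05 (limma's moderated test, Benjamini-Hochberg over all clusters); it rose. Over all clusters 0.0214% were called in this comparison. Olfr323 is a class II receptor of family MOR107 on chromosome 11, and no ligand or function is given for it in the sources used here.

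In the GF group Olfr323 measured 2.24, 2.50, 2.90 and 2.55 log2 units. In UCC2003 it measured 4.03, 3.69, 3.70 and 4.04, in TadA 3.08, 3.63, 3.17 and 3.42, and in CONV 4.01, 3.79, 4.18 and 3.29. Every array of the 3 colonised groups was above every GF array, every UCC2003 array was above every TadA array, and CONV overlapped both. The group means were 2.55 ± 0.27 in GF, 3.87 ± 0.20 in UCC2003, 3.32 ± 0.25 in TadA and 3.82 ± 0.38 in CONV (SD, n = 4 arrays each). Olfr323 was thus 2.49-fold higher in UCC2003 than in GF, a difference of 1.32 ± 0.19 log2 units (SE, adjusted p = 0.0321). The gene-level table carries the same measurement, with group means equal to those of the cluster within 0.001, and is no second observation: there the adjusted p was 0.0216. In the authors' deposited table the UCC2003 against GF fold of Olfr323 had an adjusted p of 0.217.

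The rise of Olfr323 in UCC2003 against GF did not keep its call under most alternatives, with adjusted p-values up to 1.00 (on the 8 arrays high in Cpa1 alone). Leaving out any single UCC2003 array, GF replicate 1, 2 or 4, TadA replicate 4, or CONV replicate 1 or 2 ended it, while the difference stayed between 1.21 and 1.43 log2 units without any 1 array. Olfr323 was dim, with 10.5% of all clusters at or below its mean. Among the arrays low in Cpa1 it was 2.24 in the single GF array, 3.69 and 4.04 in UCC2003, 3.08 to 3.42 in TadA, and 4.01 and 4.18 in CONV. Among the arrays high in Cpa1 it was 2.50 to 2.90 in GF, 3.70 and 4.03 in UCC2003, 3.63 in TadA, and 3.29 and 3.79 in CONV.

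**Figure D2:**
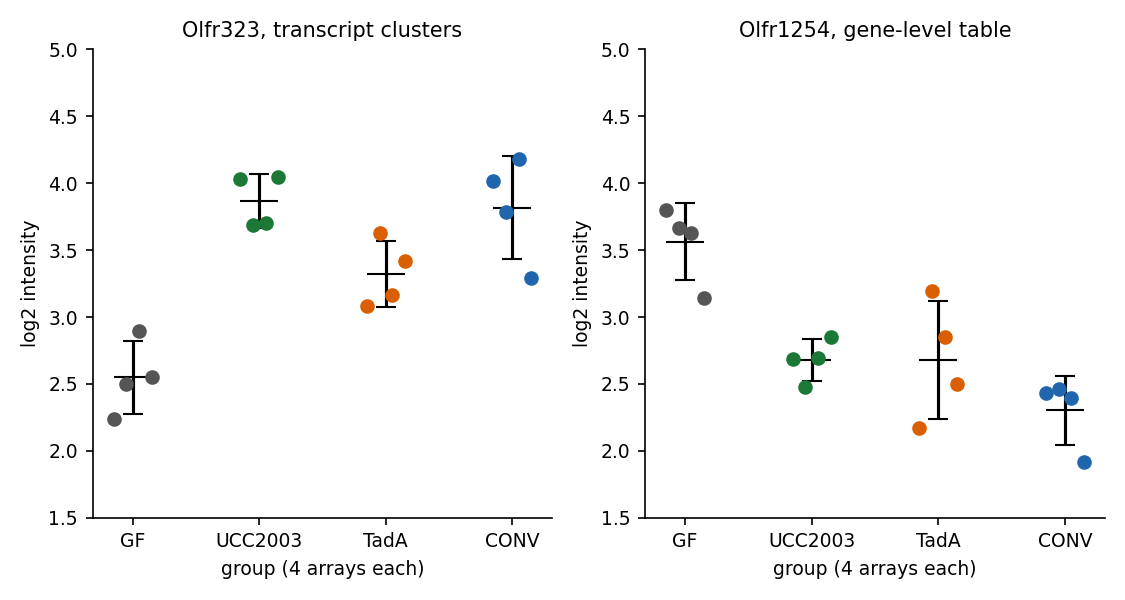
Log2 intensity (y axis) of Olfr323 and Olfr1254 in each of 4 arrays per group (points), with mean and SD (black). Olfr323 lies between 2.24 and 2.90 in GF and at 3.08 or above in all other arrays; Olfr1254 lies between 3.14 and 3.80 in GF and at 2.47 or below in CONV.

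Most members leaned the other way in UCC2003. No smooth muscle or enteroendocrine marker was called in this comparison, and the part of these cell types in the lean was not tested. Of the 210 cluster members 143 had a lower mean in UCC2003 than in GF and 67 a higher one (31.9% higher, against 59.2% of all clusters). The median difference over the members was -0.12 log2 units and that over all clusters 0.04. Of the 1964 symbols with a cluster of their own, receptors included, 1084 had the higher mean in UCC2003, with a median of 0.03. At matched level the members' median was also the lower: -0.09 against -0.02 in the dimmest 25%, -0.16 against -0.02 in the next, and -0.10 against 0.07 in the third bin. At an unadjusted p of 0.05, 13 members were lower and 2 higher, 7.14% of the members in all against 7.96% of all clusters (2.7% lower and 5.26% higher). Groups did not overlap, with UCC2003 below GF, in 9 members (4.29%, against 1.55% of all clusters), and with UCC2003 above GF in 2 members (0.952%, against 3.26%). Both classes showed it: 29 of 47 class I and 113 of 161 class II members had the lower mean in UCC2003. The size of this median depended on the arrays: it was -0.07 without UCC2003 replicate 2. It was -0.05 among arrays high in Cpa1 (2 UCC2003 against 3 GF) and -0.28 among arrays low in Cpa1 (2 UCC2003 against 1 GF). The part of pancreatic transcripts in it was not tested.

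Olfr211, a class II receptor on chromosome 6, came next to Olfr323 by p-value in UCC2003 against GF. It measured 5.19, 4.90, 5.28 and 5.36 in GF and 4.78, 4.68, 4.84 and 4.76 in UCC2003, so that every UCC2003 array was below every GF array. The difference of -0.42 ± 0.10 log2 units (SE) had an adjusted p of 0.560 and did not pass. Olfr52, on chromosome 2, had the lowest difference of any cluster member in this comparison, -1.01 ± 0.34 log2 units (adjusted p = 0.606). In the gene-level table, where the authors' selection used these 3 groups and 0.279% of genes were called, Olfr323 was the single member called. There 53 of 69 members had the lower mean in UCC2003 (41.4% of all 1793 genes had the higher one), with a median difference of -0.34 against -0.10 over all genes. Because the table holds genes selected on these arrays, this count describes the table.

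The second question is what the TadA mutant did. No cluster member was called in TadA against GF, where 0% of all clusters were called by limma, and 9 members (4.29%) had an unadjusted p under 0.05, against 6.01% of all clusters. The authors' deposited table also called 0 members. Olfr323 was 0.77 ± 0.19 log2 units higher in TadA than in GF (adjusted p = 0.748). The exact permutation test on its 4 against 4 arrays gave p = 0.0286, the smallest that 70 splits allow. Since Olfr323 was picked for small p-values on these same arrays, this p restates the lack of overlap and is no separate evidence. Fewer members had the higher mean in TadA, 81 of 210 (38.6%, against 56.2% of all clusters), and the median difference was -0.10 against 0.03. Of the 1964 symbols with a cluster of their own, receptors included, 1018 had the higher mean in TadA, with a median of 0.01. Among arrays high in Cpa1 (1 TadA against 3 GF) the members' direction turned, with 113 members higher and a median of 0.04. Their median was -0.16 among arrays low in Cpa1. Without TadA replicate 3, GF replicate 1 or GF replicate 4 the median was -0.05, -0.06 and -0.05. At matched level, over all arrays, the members' median was -0.14 against -0.02 in the dimmest bin, -0.10 against -0.02 in the next and 0.01 against 0.04 in the third. The higher mean was in TadA for 40 of 101 members against 2652 of 5833 clusters in the dimmest bin. In the next bin it was 34 of 96 members against 2697 of 5833 clusters. In the gene-level table limma called 0 of 69 members in this comparison and 0% of its genes, with 35 members (50.7%) at an unadjusted p under 0.05, against 41.3% of its genes, which had been selected on these groups.

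Olfr610, a class I receptor on chromosome 7, had the lowest difference of the cluster members in TadA against GF. It measured 4.80, 4.21, 4.51 and 4.40 in GF, 3.25, 3.71, 3.39 and 3.40 in TadA, 4.73, 4.75, 3.28 and 4.82 in UCC2003, and 4.02, 4.08, 3.91 and 4.16 in CONV. The TadA arrays were below all GF and CONV arrays, and UCC2003 replicate 3 lay with TadA, away from the other UCC2003 arrays. The difference of TadA from GF was -1.05 ± 0.27 log2 units (adjusted p = 0.748). Without UCC2003 replicate 3, which does not enter that difference but enters the estimate of spread, the adjusted p was 0.0281. Likewise UCC2003 against TadA moved from 0.96 log2 units (adjusted p = 1.00) to 1.33 (adjusted p = 0.00216) without that array.

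In UCC2003 against TadA, which sets the strain against the mutant, 0 cluster members were called by limma and 14 (6.67%) had an unadjusted p under 0.05, against 0.00857% and 3.58% of all clusters. Of the members 94 (44.8%) had the higher mean in UCC2003, against 54.4% of all clusters. At matched level it was 51 of 101 members against 2926 of 5833 clusters in the dimmest bin. In the next bin it was 40 of 96 against 2779 of 5833, and in the third 3 of 13 against 3470 of 5833. The authors' deposited table called 0. Olfr323 was 0.54 ± 0.19 log2 units higher in UCC2003 than in TadA (adjusted p = 1.00), so it did not pass after adjustment. Its exact permutation p of 0.0286 again restates only that the arrays did not overlap. The smallest p belonged to Olfr31, a class II receptor on chromosome 14, which measured 4.52, 3.45, 4.44 and 4.40 in UCC2003 and 5.06, 5.22, 5.16 and 5.10 in TadA. All UCC2003 arrays were the lower, and the difference was -0.93 ± 0.24 log2 units (adjusted p = 1.00). In the gene-level table, where 0.223% of genes were called, 0 members passed and 31 (44.9%) had an unadjusted p under 0.05, against 32.5% of its genes, selected on these groups. Olfr955, a class II receptor on chromosome 9, came nearest: it measured 4.01, 4.21, 3.96 and 4.08 in UCC2003 and 2.81, 3.01, 2.30 and 2.80 in TadA, a difference of 1.34 ± 0.22 log2 units (adjusted p = 0.0912; 0.0117 without GF column 2). Its GF arrays (3.04, 4.08, 3.50 and 2.94) and CONV arrays (3.76, 3.60, 3.88 and 3.23) lay between or overlapped. Olfr1110, on chromosome 2, was 0.92 ± 0.19 log2 units higher in UCC2003 than in TadA (adjusted p = 0.344) and 0.97 ± 0.19 higher in CONV than in TadA (adjusted p = 0.122; 0.0471 without TadA column 3).

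The third question concerns a full microbiota. In CONV against GF, Olfr323 was the single cluster member called (0.476%), where 1.89% of all clusters were called. It was 2.41-fold higher in CONV, by 1.27 ± 0.19 log2 units (adjusted p = 0.00258). The call held without any single array. It was lost when only the compared groups were fitted (adjusted p = 0.0572) and among the 8 arrays low in Cpa1 (adjusted p = 0.137), where GF had 1 array and the difference was 1.86 log2 units. It was lost as well among the 8 arrays high in Cpa1 (0.89 log2 units, adjusted p = 0.262). In the authors' deposited table the adjusted p for Olfr323 in this comparison was 0.0134. The moderated F test over the 4 groups called Olfr323 alone as well (adjusted p = 0.00456; 1.63% of all clusters).

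Olfr1254, a class II receptor of family MOR231 on chromosome 2 with no function given in the sources used here, fell in CONV in the gene-level table. It measured 3.80, 3.66, 3.63 and 3.14 in GF, 2.69, 2.48, 2.70 and 2.85 in UCC2003, 2.17, 3.20, 2.85 and 2.50 in TadA, and 2.43, 2.47, 2.39 and 1.92 in CONV. These values were low in every array, and without detection calls their distance from background is unknown. All CONV arrays were below all UCC2003 arrays and all UCC2003 arrays below all GF arrays, while 1 TadA array reached into the GF range. Olfr1254 was among the genes that the authors had selected on the GF, UCC2003 and TadA arrays. Its gap between GF and UCC2003 or TadA is therefore no separate evidence, and CONV against GF uses the same GF arrays. The mean was 3.56 ± 0.29 in GF and 2.30 ± 0.26 in CONV (SD, n = 4), a difference of -1.26 ± 0.20 log2 units, or 2.39-fold lower (adjusted p = 0.0117). Of all genes in that source 3.46% were called in this comparison, and 2 of 69 members were, Olfr323 and Olfr1254. The difference of Olfr1254 from GF was -0.88 ± 0.20 log2 units in UCC2003 (adjusted p = 0.358) and -0.88 ± 0.20 in TadA (adjusted p = 0.548). Its call in CONV was lost without GF column 1 (adjusted p = 0.0653) or GF column 2 (adjusted p = 0.0541), with the compared groups only (0.0720) and without moderation (0.0619).

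The cluster members as a set showed no such lean in CONV against GF: 104 of 210 had the higher mean (49.5%, against 51.5% of all clusters). Their median difference was -0.0021 against 0.0068 and between -0.04 and 0.05 without any 1 array. At an unadjusted p of 0.05, 20 members (9.52%) passed, against 13.2% of all clusters. Olfr168, on chromosome 16, had the smallest p after Olfr323, with a difference of -0.72 ± 0.22 log2 units (adjusted p = 0.146). All 3 sets of differences from GF were taken from 1 set of GF arrays, so their values stand side by side and are not independent.

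Against the monocolonised groups, 2 comparisons in which smooth muscle markers fell in CONV, CONV had more members with the higher mean. In CONV against UCC2003, 132 members (62.9%, against 47.7% of all clusters) had the higher mean, with a median difference of 0.11 against -0.02. The 1964 symbols with a cluster of their own, receptors included, leaned the same way: 1070 had the higher mean in CONV, with a median of 0.03. At matched level the members' median was 0.07 against 0.02 in the dimmest bin, 0.12 against 0.05 in the next and 0.16 against -0.04 in the third. The higher mean was in CONV for 59 of 101 members against 3089 of 5833 clusters in the dimmest bin. In the next bin it was 64 of 96 members against 3409 of 5833 clusters. CONV lay above UCC2003 without overlap in 11 members (5.24%, against 5.13% of all clusters) and below in 0 (against 6.69%). No member was called by limma, where 3.03% of all clusters were, and 22 members (10.5%) had an unadjusted p under 0.05, against 19.4%. The authors' deposited table called 0. Olfr918, on chromosome 9, measured 4.96, 4.03, 4.51 and 4.79 in CONV and 3.45, 2.59, 4.02 and 3.38 in UCC2003, a difference of 1.21 ± 0.32 log2 units (adjusted p = 0.0587). Its CONV arrays were all the higher, by a narrow margin over UCC2003 replicate 3, and it passed without GF replicate 2 (adjusted p = 0.0465) or GF replicate 4 (0.0448) and with quantile normalisation (0.0466). Olfr211, described above, was 0.36 ± 0.10 log2 units higher in CONV than in UCC2003 (adjusted p = 0.0698; 0.0412 without GF replicate 2). The count of members higher was 107 of 210 among arrays high in Cpa1 and 150 of 210 among arrays low in it. Each split had 2 arrays per group, and the part of pancreatic transcripts in these counts was not tested. The median was 0.0080 among arrays high in Cpa1 and 0.23 among arrays low in it. It also moved with single arrays, to 0.06 without UCC2003 replicate 2 and 0.07 without CONV replicate 3.

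In CONV against TadA, 125 members (59.5%, against 49.7% of all clusters) had the higher mean and 0 were called, where 1.4% of all clusters were. Members were drawn from the 1964 symbols with a cluster of their own. Of these, receptors included, 1108 had the higher mean in CONV and 856 the lower, so part of the contrast with all clusters is not particular to receptors. Of the members, 17 (8.1%) had an unadjusted p under 0.05, against 15.1%, and the authors' deposited table called 0. At matched level the members' median was 0.17 against 0.02 in the dimmest bin, 0.06 against 0.04 in the next and 0.02 against -0.02 in the third. The higher mean was in CONV for 63 of 101 members against 3165 of 5833 clusters in the dimmest bin. In the next bin there was no such lean, with 54 of 96 members against 3391 of 5833 clusters. The lean turned among arrays high in Cpa1 (2 CONV against 1 TadA), with 94 members higher, 116 lower and a median of -0.03. It was 0.15 among arrays low in Cpa1 and 0.04 without TadA replicate 4, against 0.09 over all arrays. Olfr1010, on chromosome 2, is annotated as a transcribed pseudogene and differed by -0.66 ± 0.19 log2 units (adjusted p = 0.113) and passed without TadA replicate 4 (adjusted p = 0.0152). Olfr202, on chromosome 16, measured 3.50, 2.58, 1.93 and 2.63 in CONV and 4.00, 4.76, 4.02 and 2.94 in TadA, a difference of -1.27 ± 0.38 log2 units (adjusted p = 0.128) with overlapping arrays. Among gene-level genes 4.13% were called in CONV against UCC2003 and 1.28% in CONV against TadA, with 0 members in either. At an unadjusted p of 0.05 the members numbered 13 (18.8%, against 40.6%) and 18 (26.1%, against 29.1%). Olfr1030, on chromosome 2, was the nearest member in CONV against UCC2003, at 0.77 ± 0.17 log2 units (adjusted p = 0.122; 0.0313 without CONV column 4).

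**Figure D3:**
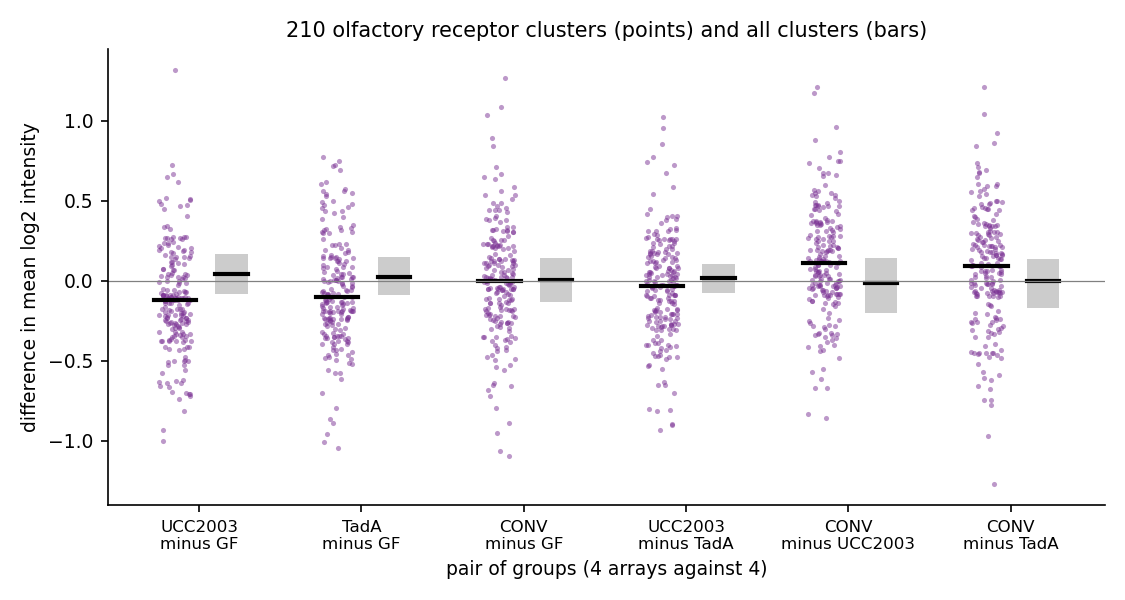
Difference in mean log2 intensity (y axis) for 6 pairs of groups (x axis), with each of 210 olfactory receptor clusters as a point and their median as a black line; grey bars give the interquartile range and median of all clusters. The receptor median lies at -0.12 in UCC2003 minus GF, -0.10 in TadA minus GF, -0.0021 in CONV minus GF and 0.11 in CONV minus UCC2003.

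The median of the 210 clusters in each array shows how far replicates differ. It was 4.96, 4.88, 4.79 and 4.97 in the GF arrays, 4.75, 4.64, 4.85 and 4.72 in UCC2003, 4.78, 4.94, 4.82 and 4.70 in TadA, and 4.83, 4.89, 4.94 and 4.86 in CONV. UCC2003 and GF overlapped, since GF replicate 3 was below UCC2003 replicate 3, and TadA overlapped both. In UCC2003 and TadA the arrays high in Cpa1 had the highest medians of their groups. In GF, by contrast, an array low in Cpa1 was among the highest, and in CONV such an array, replicate 3, had the highest median (4.94).

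**Figure D4:**
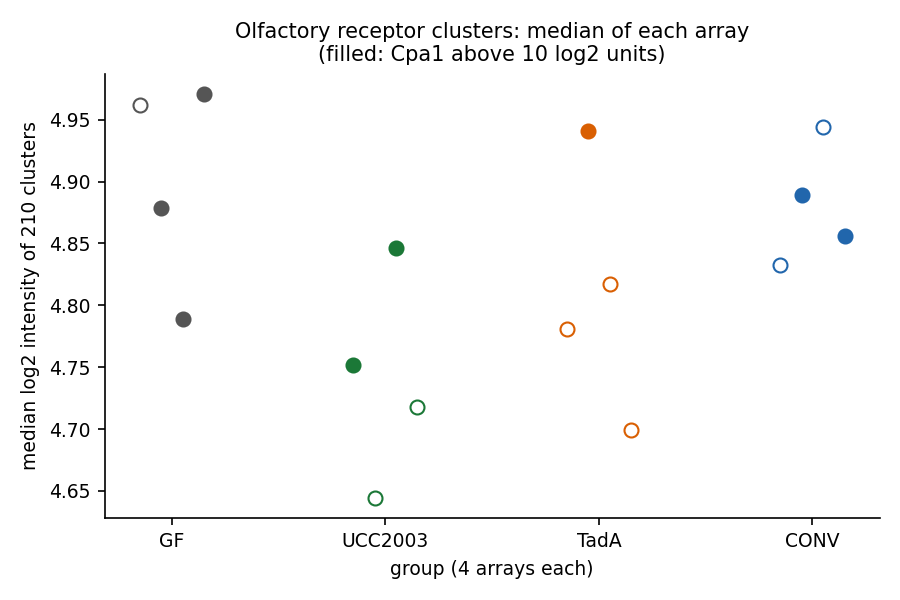
Median log2 intensity over the 210 olfactory receptor clusters (y axis) in each of the 16 arrays, by group (x axis); filled points are arrays with Cpa1 above 10 log2 units. GF arrays lie between 4.79 and 4.97 and UCC2003 arrays between 4.64 and 4.85, so the groups overlap.

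Among the 10 cluster members with the smallest F p, the patterns over groups differed. Olfr323 had adjusted p = 0.00456 and the other 9 had adjusted p-values from 0.133 (Olfr211) to 0.262 (Olfr308), none of which passed. Olfr957, on chromosome 9, had nearly equal means in UCC2003 (4.70 ± 0.28) and CONV (4.69 ± 0.37) and lower ones in GF (3.97 ± 0.63) and TadA (3.84 ± 0.50). Olfr308, on chromosome 7, had its lowest mean in UCC2003 (4.33 ± 0.17), with 4.65 ± 0.40 in GF, 4.88 ± 0.20 in TadA and 4.88 ± 0.22 in CONV. Olfr320, on chromosome 11, had its highest in CONV (5.20 ± 0.18), with 4.30 ± 0.48 in GF, 4.24 ± 0.32 in UCC2003 and 4.61 ± 0.60 in TadA (SD, n = 4 throughout).

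**Figure D5:**
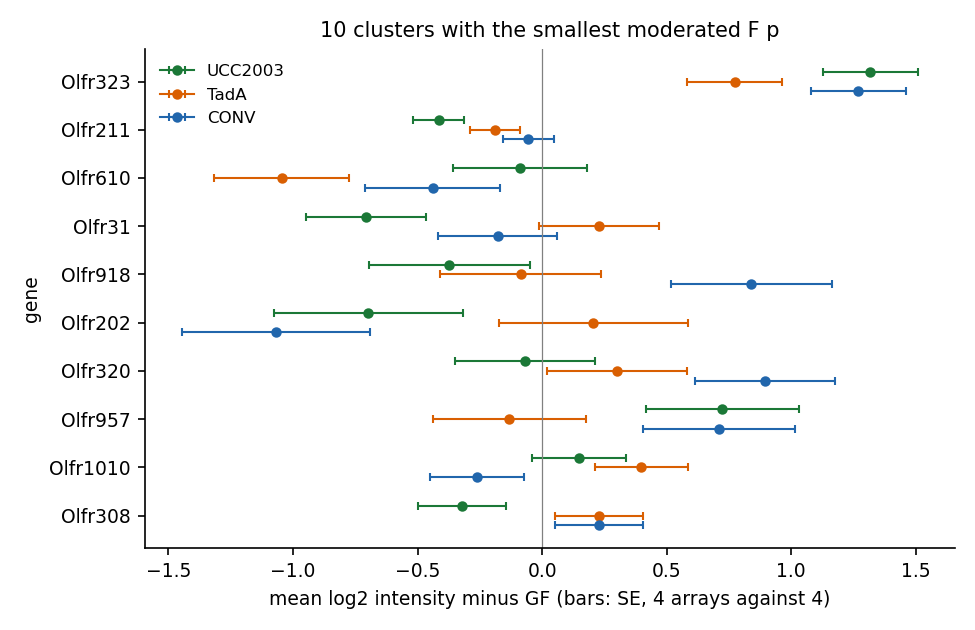
Difference of each colonised group from GF in mean log2 intensity (x axis, bars are SE, 4 arrays against 4) for the 10 olfactory receptor clusters with the smallest moderated F p (y axis). Olfr323 lies above GF in UCC2003, TadA and CONV, at 1.32, 0.77 and 1.27.

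Receptor genes beside the called ones were looked at because olfactory receptors sit in tandem arrays. Within 8 genes on either side of Olfr323 in the RefSeq gene order, 5 receptors had values: Olfr315, Olfr320 and Olfr328 as clusters and Olfr330 and Olfr331 in the gene-level table. In UCC2003 against GF they differed by -0.42, -0.07, 0.03, -0.54 and -0.59 log2 units, and in CONV against GF by 0.28, 0.89, 0.39, -0.86 and -0.77, and none was called. Around Olfr1254, the receptors Olfr1252, Olfr1257 and Olfr1260 as clusters and Olfr1249 in the gene-level table differed in CONV against GF by -0.01, 0.43, -0.05 and -0.13 log2 units, and none was called.

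Receptors with a described role outside the nose did not pass any test. Olfr558 measured 5.32, 5.77, 5.66 and 5.98 in GF, 4.34, 5.95, 5.03 and 5.88 in UCC2003, 5.98, 6.70, 6.16 and 5.62 in TadA, and 5.96, 5.55, 5.72 and 5.30 in CONV. The groups overlapped throughout, and limma's F test gave an adjusted p of 0.486. Olfr544 had means of 4.67 ± 0.23 in GF, 4.60 ± 0.10 in UCC2003, 4.36 ± 0.46 in TadA and 4.66 ± 0.46 in CONV (SD; limma's F test, adjusted p = 0.771). Olfr15 ranged in group means from 3.96 ± 0.84 in UCC2003 to 4.28 ± 0.67 in CONV (limma's F test, adjusted p = 0.972). Olfr90 and Olfr111, both on chromosome 17, had adjusted F p-values of 0.775 and 0.877.

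For the 11 receptors in both tables, values were equal in some and not in others. Olfr323, Olfr52, Olfr568 and Olfr610 had identical group means within 0.001, and the other 7 differed in at least 1 group mean by 0.09 (Olfr308) to 0.94 log2 units (Olfr1030). Olfr1030 is an example: its CONV minus GF difference was 1.09 ± 0.39 on the cluster (adjusted p = 0.223) and 0.58 ± 0.17 in the gene-level table (adjusted p = 0.764). Of the 1964 symbols with a cluster of their own 6.72% were in the gene-level table, against 5.24% of cluster members, and olfactory receptors made up 3.85% of the gene-level rows.

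Adjusted over the gene-level table alone, whose genes the authors had chosen on these arrays, more members passed. They were 34 (49.3%, against 38.3% of all its genes) in UCC2003 against GF, 11 (15.9%, against 12.8%) in TadA against GF, and 10 (14.5%, against 14.3%) in CONV against GF. In UCC2003 against TadA they were 7 (10.1%, against 5.63%), in CONV against UCC2003 4 (5.8%, against 25.6%), and in CONV against TadA 8 (11.6%, against 11.3%). The selection over UCC2003, TadA and GF bears on these counts, so nothing is read from them.

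Further gene-level receptors with small p-values did not pass the wider adjustment. Olfr1008, on chromosome 2, had lower means in UCC2003 (4.80 ± 0.27) and CONV (4.82 ± 0.29) than in GF (5.43 ± 0.09) and TadA (5.37 ± 0.04), and its difference of UCC2003 from GF had an adjusted p of 0.356. Olfr912, on chromosome 9, was lowest in TadA (1.96 ± 0.31, against 3.40 ± 0.81 in GF; adjusted p = 0.557). Olfr494, on chromosome 7, had means of 3.40 ± 0.15 in UCC2003 and 4.25 ± 0.16 in CONV without overlap (adjusted p = 0.238). Olfr114, on chromosome 17, had means of 4.92 ± 0.13 in TadA and 5.62 ± 0.30 in CONV without overlap (adjusted p = 0.255). Olfr677, a class I receptor, had means of 4.04 ± 0.30 in GF and 3.38 in both UCC2003 and TadA, and the pseudogene Olfr1191-ps1 had 4.55 ± 0.36 in GF and 3.88 ± 0.21 in UCC2003. Their adjusted F p-values were 0.323 and 0.326.

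Receptors at the ends of the range of means also passed no test. At the upper end of the clusters were Olfr1333, Olfr1411 and Olfr429, and at the lower end Olfr823, Olfr201 and Olfr202. Olfr823 varied most among these, from 1.13 to 4.82 within TadA. In the gene-level table the ends were Olfr331, Olfr45 and Olfr1532-ps1 and, at the bottom, Olfr935, Olfr1216 and Olfr1317. Olfr935 had a GF mean of 1.28 ± 0.26 and a UCC2003 mean of 2.12 ± 0.32 without overlap (adjusted p = 0.365). Olfr46, Olfr147, Olfr392 and Olfr568, all in both tables, had adjusted F p-values on the clusters of 0.523, 0.436, 0.264 and 0.295.

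The transduction and receptor-expression machinery of olfactory neurons was represented by 9 of 37 listed genes, 5 as clusters and 4 in the gene-level table. Of the 5 clusters Stom alone was called, in the 3 comparisons of CONV, where 1.89%, 3.03% and 1.4% of all clusters were. Of the 4 gene-level genes Cnga1 alone was called in UCC2003 against GF, where 0.279% of a table selected on those groups were. Stom, a membrane scaffold protein found in many cell types, rose in CONV: its group means were 7.88 ± 0.13 in GF, 7.72 ± 0.51 in UCC2003, 8.04 ± 0.37 in TadA and 9.45 ± 0.68 in CONV (SD, n = 4). The CONV arrays (8.58 to 10.24) were above all others. The difference was 1.56 ± 0.31 log2 units from GF (adjusted p = 0.0174), 1.72 ± 0.31 from UCC2003 (adjusted p = 0.00915) and 1.41 ± 0.31 from TadA (adjusted p = 0.0382). Cnga1, a cyclic nucleotide-gated channel subunit best known from rods and not from olfactory neurons, had means of 4.45 ± 0.28 in GF, 3.27 ± 0.24 in UCC2003, 4.02 ± 0.21 in TadA and 3.84 ± 0.23 in CONV, and it fell in UCC2003 against GF (-1.17 ± 0.16 log2 units, adjusted p = 0.0210). The other 7 did not pass: Cbx5, Omp, Reep6 and Rtp1 as clusters (adjusted F p from 0.192 to 0.850) and Stoml3, Adrbk2 and Lhx2 in the gene-level table. Gnal, Adcy3 and Cnga2, the core of the olfactory cascade, were not analysed here.

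Other chemosensory families showed no call. Clusters numbered 14 for the Vmn1r vomeronasal receptors, 4 for trace amine receptors, 11 for taste receptors, 2 for Mrgpr and 2 for formyl peptide receptors, with 0 called by limma's F test and an unadjusted p under 0.05 in 1 vomeronasal and 1 taste receptor. The smallest adjusted F p was 0.208, in the taste receptors. The gene-level table held 7 Vmn1r, 5 Vmn2r, 3 taste, 1 Mrgpr and 1 formyl peptide receptor genes, and limma called 0 of them in any pair.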

How the data were processed

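RNA of whole colon was measured on 16 arrays in 4 groups. The array values are log2 intensities deposited by the authors; the submitters' processing notes name Affymetrix Expression Console 1.1, RMA, Partek and mm9. The p-values and adjusted p-values of the authors' deposited comparison table, which covers 16135 clusters, come from a test of the authors', per the file headers, as do its signed fold values, and are quoted only under that name. The gene-level log2 values were deposited by the authors for 1793 genes with a p under 0.05 in a test over UCC2003, TadA and GF, per the file headers, and its columns carry a group and no replicate number.

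Members were taken by symbol, from rows with exactly 1 gene, and 0 members had several rows. One coefficient per group was fitted with limma 3.58.1 in R 4.3.3, two-sided, with Benjamini-Hochberg over 23332 clusters. For the gene-level genes the adjustment used 35860 tests (1793 divided by 0.05), since they were preselected. The procedure was run on simulated data of independent normal values. These held no pancreatic arrays, no correlation between related receptors and no preselected genes, so the run says nothing about such features. The members, lists and tests were chosen with earlier results of these data known. Named, in each table, are all called members, the 10 smallest F p-values, the 2 smallest p-values per pair, the 3 highest and 3 lowest means, and further members of both tables, those with roles outside the nose, the signalling list and other chemosensory families. The number of arrays limits the precision. Alternatives covered scaling, moderation, the arrays used, brightness, pancreatic transcripts and single arrays; splits by Cpa1 and by level were added after seeing the data. RefSeq start windows matched 218 of 268 members.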

Additional observations from a re-analysis of the deposited data

Results flagged for a closer look

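Among 212 groups of 4 arrays of the named receptors, 14 (6.60%) held an array far from the other 3, by Dixon's criterion at the 95% level; chance gives about 1 in 20. On the clusters, Olfr610 was low in UCC2003 replicate 3 (3.28, the nearest other 4.73), Olfr31 low in UCC2003 replicate 2 (3.45, nearest 4.40), Olfr52 high in GF replicate 4 (5.01, nearest 4.49), and Olfr429 high in GF replicate 4 (7.04, nearest 6.83) and low in TadA replicate 4 (6.60, nearest 6.95). In the gene-level table the same values stood out for Olfr610 (3.28 in UCC2003 column 3) and Olfr52 (5.01 in GF column 4).

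Further gene-level values that stood apart were Olfr1008 in GF column 1 (5.56, nearest 5.40), Olfr1254 in CONV column 4 (1.92, nearest 2.39), Olfr1030 in CONV column 4 (2.80, nearest 3.34), Olfr677 in GF column 4 (4.50, nearest 3.95), Olfr392 in TadA column 3 (4.09, nearest 5.37), Olfr1532-ps1 in UCC2003 column 1 (5.78, nearest 5.23) and Olfr1317 in GF column 3 (1.48, nearest 2.07). Without CONV column 4 the fall of Olfr1254 in CONV remained called.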

How the results depend on the processing

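Over 803 recomputed values of 34 single-gene results, 0 reversed, 36 lost a call and 25 gained one. Part of these values could not reverse, so the 0 says less about direction than the total implies. F tests over the groups have no direction. Leaving out an array outside a pair, or changing only the moderation, keeps the difference of that pair as it was. Other pairs of Olfr323 did turn between arrays high and low in Cpa1: CONV minus TadA was 0.50 over all arrays and -0.09 in the high ones, and CONV minus UCC2003 -0.05 over all and 0.23 in the low ones. On clusters, the single call in UCC2003 against GF became 0 with each array centred on its median, the compared groups only, no moderation, a prior with trend and robust, the dimmest 25% of clusters left out, the replicate block, the pancreatic arrays left out, the pancreatic level as a covariate, and in the authors' deposited table. The single call in CONV against GF became 0 with the compared groups only, without the dimmest 25% and without the pancreatic arrays, and 2 with the replicate block or the pancreatic covariate. The F test called 0 without the dimmest 25% and without the pancreatic arrays. On the pancreatic arrays alone, a setting added after seeing the data that leaves 1 TadA array assumed to vary like the rest, UCC2003 against GF, CONV against GF and the F test each called 0. CONV against UCC2003 called 1 with quantile normalisation, without the dimmest 25%, with the replicate block and with the covariate. Leaving out the dimmest 25% removes 101 members, Olfr323 among them; the other causes were not tested. Leaving out each array in turn gave 0 to 1 calls in UCC2003 against GF, TadA against GF, UCC2003 against TadA and CONV against TadA, 1 to 2 in CONV against GF and over 4 groups, and 0 to 2 in CONV against UCC2003.

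In the gene-level table, adjustment over its own genes gave 34 calls in UCC2003 against GF, 11 in TadA against GF, 10 in CONV against GF, 7 in UCC2003 against TadA, 4 in CONV against UCC2003 and 8 in CONV against TadA. The compared groups only gave 2 in UCC2003 against GF and 0 in CONV against GF; no moderation gave 0 and 1, and the prior with trend and robust gave 0 in UCC2003 against GF. Leaving out each column gave 1 to 3 in CONV against GF (3 without CONV column 1) and 0 to 1 in the other pairs. The replicate numbers did not pair the arrays: deviations of same-numbered arrays correlated from -0.305 to 0.206, 4 of 24 above 0.1, and 2 of 16 arrays correlated best with their own number; under the block Olfr323 in UCC2003 against GF had an adjusted p of 0.205, Olfr168 in CONV against GF 0.0465 and Olfr918 in CONV against UCC2003 0.0400. No paired analysis was possible in the gene-level table because its columns carry no number. The median over members ran from -0.28 to -0.05 in UCC2003 against GF and from 0.0080 to 0.23 in CONV against UCC2003. It changed sign in TadA against GF (-0.16 to 0.04), CONV against TadA (-0.03 to 0.15) and CONV against GF (-0.04 to 0.05). Without detection calls, how far dim receptors lie above background is unknown.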
